A study of Mus musculus with 3 samples.

Results

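The 4 secreted Wnt antagonists Notum, Wif1, Dkk2 and Dkk3 were followed over single cells of organoids of the mouse small intestine, a culture in which epithelium grows as hollow or solid bodies in a gel. The genes were taken by symbol from the 32285 genes of the deposited tables, and all 4 were found there. Levels were read in cells that were deep and found in 1 library only, which are barcodes with at least 10000 unique molecular identifiers (UMIs, each of which tags 1 captured RNA molecule) and at most 20% of UMIs from mitochondrial genes. These were 5300 of the 34185 deposited barcodes, of which LApc gave 2161, LApcL 1931 and WT 1208.

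All mice were given as C57BL/6, were 7 to 8 weeks old at treatment and received 2 doses of tamoxifen at 2 mg. WT was wild type. LApc carried Lgr5-CreERT2 (Lgr5-EGFP-IRES-CreERT2 in the study's methods) and Apc fl/fl, so that tamoxifen activates the Cre recombinase only in cells that use the promoter of Lgr5, a stem cell gene. The intended target is Apc, a brake on Wnt signalling. LApcL carried in addition Lef1 fl/fl, which the same Cre is meant to delete. By the study's methods the Lef1 fl/fl line came from a mixed background and was backcrossed to C57BL/6 before use. Organoids were taken 21 days after tamoxifen in WT and LApcL and 29 days after it in LApc, and were trypsinised at passage 3 on day 6. Whether single cells had recombined is not given by the labels, and the kit version of each library is not given in the sources used here. Each genotype had 1 library, so no difference between genotypes has a replicate check and no p-value was computed. Genotype, mouse, days after tamoxifen and library cannot be told apart. Xist, the RNA of the inactive X chromosome, moved with the groups and was at 1281 CPM (counts per 1000000 UMIs) in LApc, 0.920 CPM in WT and 0.261 CPM in LApcL, while the Y-linked Ddx3y was at 0.0330, 48.7 and 49.3 CPM in the same order. The part of sex in the results was not tested.

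Wnt proteins are lipid-modified ligands that bind Frizzled receptors together with the co-receptors Lrp5 and Lrp6, and so stabilise beta-catenin, which acts with Tcf and Lef factors on target genes. Apc is part of the complex that degrades beta-catenin. Notum is a secreted enzyme that removes the lipid from Wnt proteins. Wif1 binds Wnt proteins outside the cell. Dkk2 binds Lrp5 and Lrp6, and Dkk3 is a divergent relative of it. Several of these antagonists are themselves Wnt target genes and are known as feedback inhibitors in the intestinal crypt and in intestinal tumours.

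By the GENCODE M21 annotation of the mouse build GRCm38, Notum (ENSMUSG00000042988) lay on the minus strand at chr11:120653788-120661175, with 11 exons in its longest coding transcript. The antisense genes Notumos and Myadml2os overlapped it on the opposite strand. Wif1 (ENSMUSG00000020218) lay on the plus strand at chr10:121033960-121100650 with 10 exons. Dkk2 (ENSMUSG00000028031) lay on the plus strand at chr3:132085292-132180304 with 4 exons, and Dkk3 (ENSMUSG00000030772) on the minus strand at chr7:112116017-112159057 with 8 exons. No annotated gene overlapped Wif1, Dkk2 or Dkk3. The libraries were made with a 3′ chemistry, so the UMIs came mainly from the last exons.

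Promoter windows from RefSeq on GRCm38.p6 were found for 2 of the 4 genes. They are the windows held by the table, and are shown because Wif1 was higher and Dkk2 lower in Npy-positive cells below. Each is the 250 bases before the RefSeq start, read 5′ to 3′ on the plus strand, at chr10:121033754-121034003 and chr3:132085042-132085291. Capitals mark the letters CTTTG, the core shared by the sites that Tcf and Lef factors bind.
Wif1: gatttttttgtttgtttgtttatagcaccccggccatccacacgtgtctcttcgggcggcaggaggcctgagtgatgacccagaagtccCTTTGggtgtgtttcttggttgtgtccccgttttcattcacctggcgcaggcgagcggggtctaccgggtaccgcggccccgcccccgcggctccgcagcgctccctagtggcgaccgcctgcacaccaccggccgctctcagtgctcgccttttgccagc
Dkk2: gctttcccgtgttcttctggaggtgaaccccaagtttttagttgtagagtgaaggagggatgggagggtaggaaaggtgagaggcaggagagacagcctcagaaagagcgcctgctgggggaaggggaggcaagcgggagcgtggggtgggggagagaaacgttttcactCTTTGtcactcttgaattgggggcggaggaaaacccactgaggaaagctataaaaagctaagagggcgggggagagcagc
Each window held the core 1 time on either strand, with its first base 161 bases before the start in Wif1 and 80 bases before it in Dkk2. Of 32851 promoter windows of the same length, 48.6% held CTTTG on 1 of the strands. The longer words CTTTGAA or CTTTGAT and CTTTGTA or CTTTGTT, which all contain the core, were searched on both strands and were in neither window. At least 1 of them was in 14.8% of all windows. A match of letters is a description of the window and not a binding site.

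The deep cells of WT held 48895147 UMIs, those of LApc 90864428 and those of LApcL 80504226, with medians of 38074, 34377 and 32584 UMIs per cell. Of the deposited barcodes, 27.3 to 30.3% per library also occurred in another library, and 3195 occurred in all 3. These shared barcodes were left out above. The epithelial label held in the deep cells: the 7 epithelial markers, Epcam among them, were all present and summed to between 4565 and 8043 CPM per library. The 8 fibroblast and muscle markers summed to between 1.43 and 2.43 CPM, with Lum at 0 in LApc and LApcL and Col3a1 and Dcn at 0 in WT. The RNA of these fibroblast and muscle genes was thus near 0 in all 3 libraries. The 5 endothelial markers summed to 1.31 CPM in WT, 18.2 CPM in LApc and 5.37 CPM in LApcL. The targeted genes did not fall to 0: WT had Lef1 at 0.961 CPM, LApc at 72.0 CPM and LApcL at 47.8 CPM, and Apc at 20.0, 88.5 and 95.4 CPM. A 3′ count does not check a deletion of other exons, and the deleted exons are not given in the sources used here. These counts therefore neither show nor refute the loss of Lef1 in LApcL, which the study states that it checked in the organoids before sequencing them.

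The antagonists were nearly absent from WT cells, high in LApc cells and, apart from Dkk2, much lower in LApcL cells. The WT library had 19 Notum UMIs, LApc 27449 and LApcL 5899, which is 0.389, 302 and 73.3 CPM. Its order was thus LApc, LApcL, WT, and the counting intervals of the 3 levels did not overlap (0.234 to 0.607, 299 to 306 and 71.4 to 75.2 CPM). For Wif1 the WT library had 1 UMI, LApc 11320 and LApcL 599, or 0.0205, 125 and 7.44 CPM. Dkk3 was of the same kind, with 1, 7428 and 234 UMIs, or 0.0205, 81.7 and 2.91 CPM. Dkk2 differed from these: WT had 5 UMIs of it, LApc 5108 and LApcL 3440, or 0.102, 56.2 and 42.7 CPM. The order of the libraries was the same for all 4 genes, but for Dkk2 the LApc and LApcL levels were close together. The spread between libraries of a genotype cannot be measured here, so the intervals, all exact at the 95% level, cover counting error only.

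**Figure D1:**
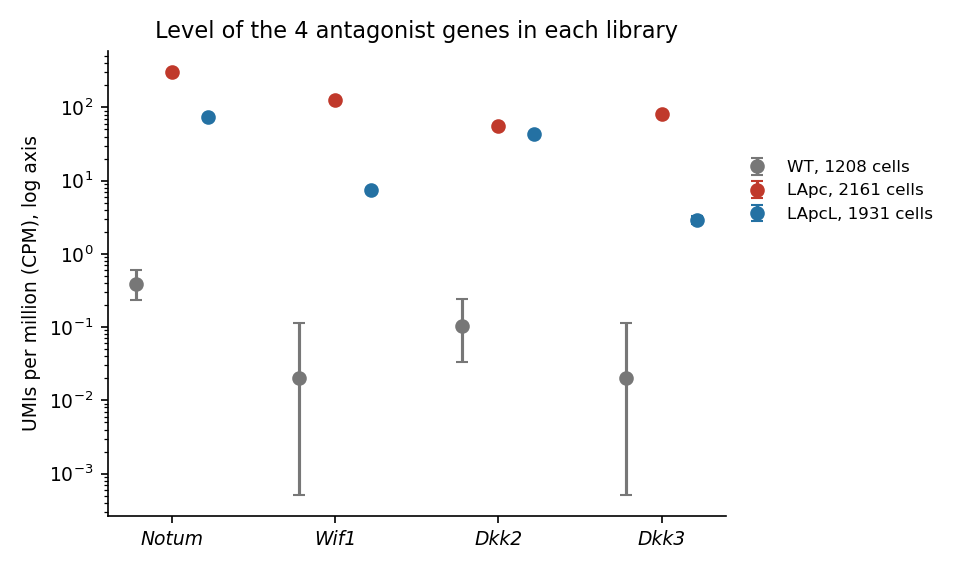
Level of each gene, in CPM on a log axis, over the deep cells of each library, with exact 95% Poisson intervals as bars. LApc lies highest for all 4 genes, LApcL lies close to it for Dkk2 (42.7 against 56.2 CPM) and far below it for Dkk3 (2.91 against 81.7 CPM), and WT lies under 1 CPM throughout.

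LApc against WT asks what goes with the Apc genotype. The ratio of LApc to WT was 777 for Notum (498 to 1291) and 550 for Dkk2 (235 to 1694). For Wif1 it was 6091 and for Dkk3 3997, but each rests on 1 WT UMI and its interval reaches down to 1093 and 717. All 4 genes were thus 2-fold or more higher in LApc, where 31.6% of the 17091 genes with at least 10 UMIs in 1 of the groups were. Wif1, Dkk2 and Dkk3 were under 10 UMIs in WT and passed this filter through LApc alone, so the count and the median below are descriptions. On the scale of log2 (CPM + 1), which understates the change of low genes, the median of the 4 was 6.64, against 0.31 over all genes tested. Genes with at least 100 UMIs in both libraries had a median log2 ratio of 0.45, so much of the table lay above WT at this scaling, and the antagonist ratios are given beside that shift. The cells also differed in kind: the 5 enterocyte markers summed to 11432 CPM in WT and 1.63 CPM in LApc, the 4 enteroendocrine markers to 548 and 13.6 CPM, and the 5 Paneth cell markers to 237 and 858 CPM. The median mitochondrial share was 10.5% in WT and 5.64% in LApc. The part of these in the result was not tested.

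LApcL against LApc asks what goes with the added Lef1 genotype. Dkk3 was 28.1-fold lower in LApcL (24.7 to 32.2), Wif1 16.7-fold lower (15.4 to 18.2) and Notum 4.12-fold lower (4.01 to 4.24). Dkk2 was 1.32-fold lower (1.26 to 1.37). So 3 of the 4 antagonists were 2-fold or more lower in LApcL, where 12.0% of 16558 genes were. Markers of other cell types differed between these libraries: LApc had the 5 Paneth cell markers at 858 CPM and LApcL at 2478 CPM, the 4 enteroendocrine markers at 13.6 and 2.84 CPM, and the 5 endothelial markers at 18.2 and 5.37 CPM. Their part in the result was not tested. The median of the 4 log2 ratios was -2.96, against 0.00 over all genes tested, a value that is -0.0015 before rounding. Both comparisons use the same LApc library, so a low LApcL ratio and a high LApc ratio are not independent of each other.

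The lower levels in LApcL were seen both in the share of cells with a UMI and in the UMIs per such cell. To compare shares of cells, each cell was thinned to 10000 UMIs by drawing at random without replacement. LApc cells with Notum were then 64.9% (62.8 to 66.9%) and LApcL cells with it 47.9% (45.7 to 50.2%), against 82.1% and 80.0% before thinning. The share of cells with at least 10 thinned Notum UMIs was 10.7% in LApc and 0.311% in LApcL, and the median among detecting cells was 3 UMIs in LApc and 1 in LApcL. At equal depth Notum was thus found in fewer LApcL cells than LApc cells, and at fewer molecules in those with it.

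After thinning, Wif1 was in 28.5% of cells in LApc (26.6 to 30.5%) against 6.16% in LApcL (5.13 to 7.33%). Dkk3 was detected in 36.2% (34.2 to 38.3%) and 2.64% (1.97 to 3.46%). The median among detecting cells was 3 UMIs in LApc and 1 in LApcL for Wif1, and 2 and 1 for Dkk3. Cells with at least 10 thinned Wif1 UMIs were 3.89% of LApc and 0% of the LApcL cells. Dkk2 was detected in 22.5% of cells in LApc (20.7 to 24.3%) against 20.8% in LApcL (19.03 to 22.7%), and these intervals overlap. Without thinning Wif1 was found in 37.8% and 12.4% of cells, Dkk3 in 49.7% and 5.75%, and Dkk2 in 35.7% and 38.3%. In thinned WT cells Notum was found in 5 cells and Dkk2 in 2, while Wif1 and Dkk3 were found in 0 of 1208, which allows a share of cells with a UMI at this depth of up to 0.248% by a limit of 3 counts and 0.305% by the exact interval. Before thinning each of them had 1 WT cell with a UMI. Free RNA can give a UMI in a cell that does not express a gene. Barcodes shared between libraries carried the endothelial gene Pecam1 at 959 CPM in LApc and 962 CPM in LApcL. Wif1 was found in 0.308% of them in LApc and 0.0606% in LApcL, Dkk3 in 0.647% and 0.455%, Notum in 0.863% and 0.364%, and Dkk2 in 3.05% and 3.00%. Their median depths were 1489 and 1581 UMIs, well under the thinned depth, so these shares set no background for the shares above. Dkk2 was also in 3.78% of the shared barcodes of WT.

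Within LApc each gene was concentrated in a part of the cells. For Wif1, 95 cells (4.40% of the library) held 50% of its UMIs, and the 217 cells highest in it (the top 10%) held 74.2%. For Dkk2, 114 cells (5.28%) held 50%, and the top 10% held 69.5%. Notum and Dkk3 were spread more widely, with 50% of UMIs in 233 and 216 cells and 48.1% and 50.2% in the top 10%. The variance over the mean of the thinned counts, which is 1 for pure counting noise, was 9.75 for Notum, 10.1 for Wif1, 5.31 for Dkk2 and 3.33 for Dkk3 in LApc. In LApcL it was 2.70, 2.17, 3.93 and 2.33 in the same order. This value also rises with the mean of an unevenly spread gene, and the thinned mean of Wif1 was 1.38 UMIs in LApc and 0.101 in LApcL. The values therefore do not rank the genes or libraries by unevenness. In LApcL, 50% of UMIs lay in 0.932% of cells for Dkk3, 2.43% for Wif1, 5.90% for Dkk2 and 17.5% for Notum. These shares depend on the number of UMIs as well.

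**Figure D2:**
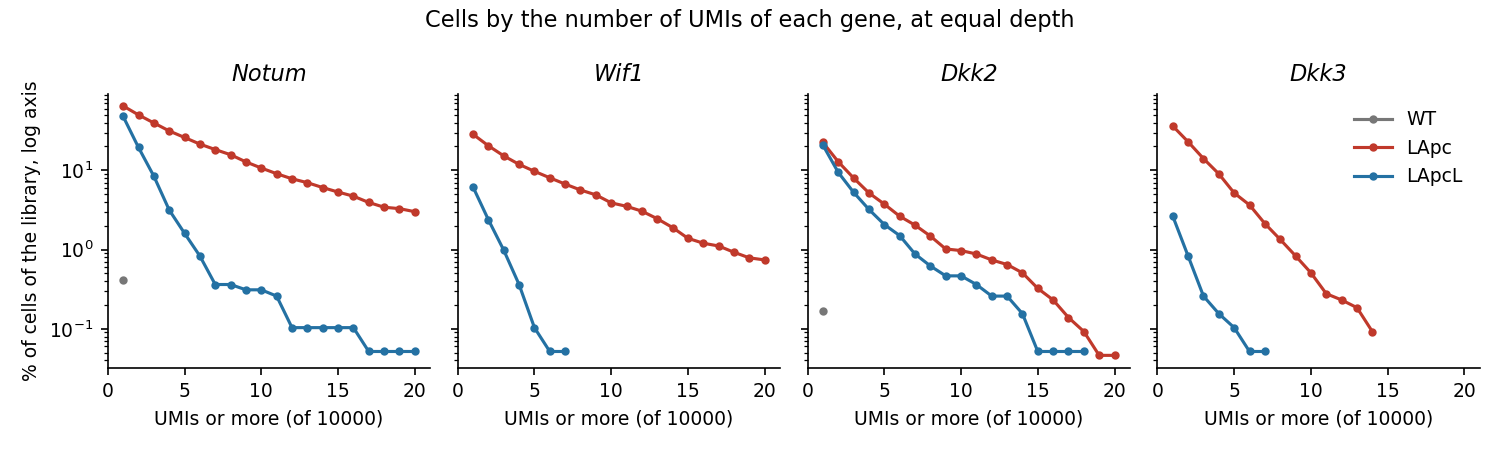
Percent of the cells of each library (log axis) with at least the number of UMIs on the x axis, after thinning each cell to 10000 UMIs, with 1 panel per gene. The Dkk2 curves of LApc and LApcL run close together from 22.5% and 20.8% at 1 UMI, whereas the LApcL curves of Notum, Wif1 and Dkk3 fall away from those of LApc.

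Npy, which encodes neuropeptide Y, marks a subset of LApc cells. Npy had 35996 UMIs in LApc deep cells, 2 in LApcL and 0 in WT. Cells with at least 5 Npy UMIs (Npy-positive) numbered 179, or 8.28% of LApc cells. Cells with 0 or 1 (Npy-low) numbered 1904, and the 78 cells with 2 to 4 were placed in neither class. Median depths were close in both classes, at 34669 UMIs in Npy-positive and 33864 in Npy-low cells. No WT or LApcL cell was Npy-positive, and these classes are compared within the 1 LApc library, whose cells are not replicates.

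Wif1 was at 724 CPM in Npy-positive cells and 60.6 CPM in Npy-low cells, a ratio of 12.0 (11.5 to 12.4). Dkk3 was at 243 and 63.3 CPM, a ratio of 3.85 (3.65 to 4.06). Notum was at 695 and 262 CPM, a ratio of 2.65 (2.57 to 2.73). Dkk2 went the other way, with 27.6 CPM in Npy-positive and 59.0 CPM in Npy-low cells, which is 2.14-fold lower (1.87 to 2.47). Thus 3 antagonists were 2-fold or more higher in Npy-positive cells, where 16.1% of 15905 genes were, and 1 was 2-fold or more lower, where 9.54% were. The Dkk2 call lies near the limit: its log2 ratio of CPM + 1 was -1.07, and it lay between -1.65 and -0.85 over 12 alternatives. The value of -0.85 was without the cells of highest Scrublet score, which marks likely doublets, and that of -1.65 with each cell given the same weight. In cells with at least 20000 UMIs it was -0.98. The call uses the ratio without the added 1, which this scale understates, so the -0.98 does not settle the call. The median of the 4 log2 ratios was 1.67, against 0.04 over all genes tested, and it hides the opposite sign of Dkk2.

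The Npy-positive cells held 49.6% of all Wif1 UMIs of the LApc deep cells, 25.4% of Dkk3, 19.7% of Notum and 4.19% of Dkk2, beside 8.54% of all UMIs. After thinning Wif1 was detected in 89.9% of Npy-positive cells (84.6 to 93.9%) and 22.2% of Npy-low cells (20.3 to 24.1%). Dkk3 was detected in 80.4% and 31.5%, Notum in 96.1% and 61.6%, and Dkk2 in 11.7% and 23.4%. Of the 210 LApc cells with at least 5 thinned Wif1 UMIs, 103 (49.0%) were Npy-positive. Of the 81 cells with as many Dkk2 UMIs, 0 were. Single cells varied widely: per-cell Wif1 had quartiles of 192 and 1036 CPM around a median of 587 CPM in Npy-positive cells, and a median of 0 with an upper quartile of 41.9 CPM in Npy-low cells.

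Across finer classes of Npy count, Wif1 was at 60.2 CPM at 0 Npy UMIs, 61.9 at 1, 213 at 2 to 4, 587 at 5 to 19, 581 at 20 to 99, 906 at 100 or more but under 500, and 949 CPM in the 19 cells with 500 or more. The Wif1 level thus changed most between 1 and 5 Npy UMIs. From the cells with 5 to 19 Npy UMIs to those with most, Npy itself went from 232 to 20099 CPM. Dkk2 was at 59.7, 56.6, 56.0, 38.5, 23.4, 20.3 and 24.4 CPM over the same classes. Dkk3 went from 63.9 to 301 CPM in the cells with 100 or more but under 500 Npy UMIs and was at 223 CPM in those with most. Notum was highest in the same class, at 824 CPM, and lay at 537 CPM in the cells with 500 or more.

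**Figure D3:**
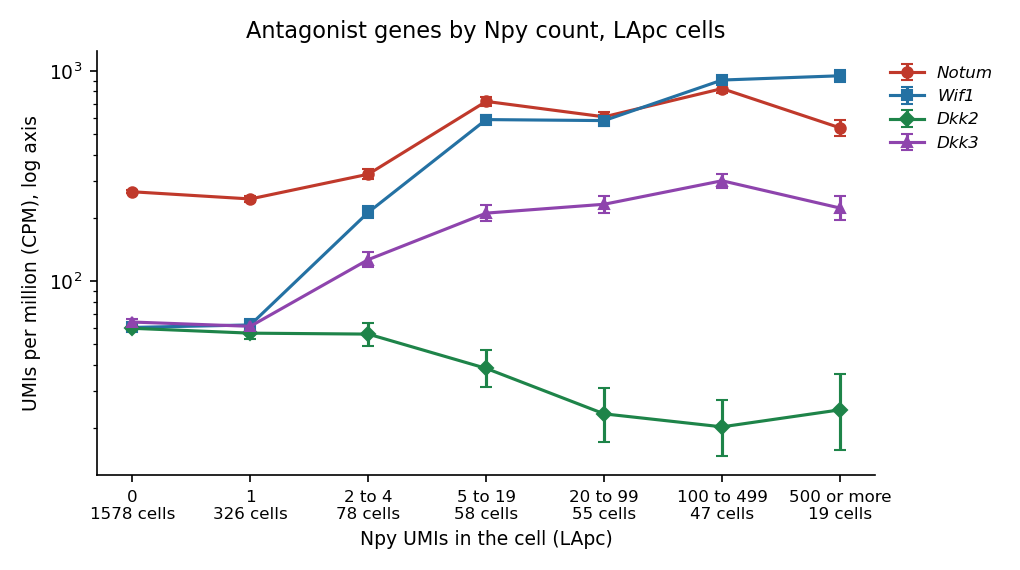
Level of each gene in LApc deep cells by the number of Npy UMIs in the cell, in CPM on a log axis, with exact 95% Poisson intervals and the number of cells under each class. Wif1 is at 60.2 CPM in the first class and 949 CPM in the last, and Dkk2 at 59.7 and 24.4 CPM.

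Markers of other cell types moved with the Npy classes. The 4 enteroendocrine markers summed to 1.16 CPM there and 15.1 CPM in Npy-low cells, and the 4 neuron markers to 0.387 and 0.927 CPM. The 5 Paneth cell markers summed to 165 CPM in Npy-positive and 970 CPM in Npy-low cells. The 8 fibroblast and muscle markers summed to 5.93 and 1.96 CPM, with 6 at 0 in Npy-positive cells, Col1a1, Pdgfrb and Dcn among them. The 5 endothelial markers were all present and summed to 92.5 CPM in Npy-positive and 10.8 CPM in Npy-low cells. Over all LApc deep cells, Flt1 and Cdh5 supplied most of this list, at 11.7 and 4.77 CPM, and Pecam1, Kdr and Emcn were at 1.60, 0.0880 and 0.0330 CPM. The part of these lists in the antagonist levels was not tested. The epithelial markers were at 7073 and 7353 CPM.

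The lower levels in LApcL were also seen without the Npy-positive cells. Between Npy-low cells of both libraries, Dkk3 was 21.8-fold lower in LApcL (19.1 to 24.9), Wif1 8.14-fold lower (7.47 to 8.87), Notum 3.58-fold lower (3.47 to 3.68) and Dkk2 1.38-fold lower (1.32 to 1.45). Again 3 of 4 were 2-fold or more lower, where 9.93% of 16258 genes were. The median log2 ratio was -2.35, against 0.01 over all genes. The Wif1 ratio was the one most changed by leaving out the Npy-positive cells, from 16.7-fold to 8.14-fold. Npy-low LApc cells remained far above WT for Notum, with a ratio of 675 (432 to 1121). All 4 genes were 2-fold or more higher there, where 31.1% of 16791 genes were. Wif1, Dkk2 and Dkk3 were under 10 UMIs in WT and passed the filter through LApc alone, so this count is a description.

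In LApc cells Notum, Wif1 and Dkk3 were found together, while Dkk2 was near independence of Wif1 and Dkk3. After thinning, 582 of the 616 cells with Wif1 (94.5%) also had Notum, and 457 of them (74.2%) also had Dkk3. Of the 783 cells with Dkk3, 738 (94.3%) had Notum, where 64.9% of all cells did. The odds ratio of joint detection was 17.6 for Notum with Dkk3, 15.1 for Notum with Wif1 and 10.7 for Wif1 with Dkk3. For Dkk2 it was 1.86 with Notum, 1.15 with Dkk3 and 0.812 with Wif1. Of the 616 Wif1 cells 123 (20.0%) had Dkk2, close to the 22.5% of all cells. Without the Npy-positive cells the pattern was similar: in Npy-low cells the odds ratios of the first 3 pairs were 15.8, 12.2 and 8.96, and Dkk2 had 1.96 with Notum, 1.29 with Dkk3 and 0.904 with Wif1.

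In LApcL the same pairs were nearer to independence. The odds ratio was 2.03 for Notum with Dkk3, 1.66 for Notum with Wif1 and 2.97 for Wif1 with Dkk3, the last from 8 cells with both. Dkk2 had 1.56 with Notum, 1.18 with Wif1 and 0.811 with Dkk3. Of the 119 Wif1 cells of LApcL, 71 (59.7%) had Notum, and 8 (6.72%) had Dkk3. Detection was sparser in LApcL, with Wif1 in 6.16% and Dkk3 in 2.64% of thinned cells, against 28.5% and 36.2% in LApc. The part of sparse detection in these odds ratios was not tested.

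At least 2 of the 4 genes were detected in 1069 of 2161 thinned LApc cells (49.5%, 47.3 to 51.6%) and in 314 of 1931 LApcL cells (16.3%, 14.6 to 18.0%). These shares depend on depth and on the limit of detection: without thinning they were 65.8% and 43.1%, and with detection at 2 UMIs 34.3% and 3.83%. In WT it was 0 of 1208 cells, which allows up to 0.248% by a limit of 3 counts and 0.305% by the exact interval. Among LApc cells the share was 96.1% in Npy-positive cells (92.1 to 98.4%) and 44.7% in Npy-low cells (42.5 to 47.0%), so that Npy-low LApc cells also lay above LApcL. The most frequent combination of several genes in LApc was Notum with Wif1 and Dkk3, in 353 cells (16.3%), and it made up 116 of the 179 Npy-positive cells (64.8%). In LApcL this combination was in 6 cells (0.311%), and the most frequent pair was Notum with Dkk2, in 204 cells (10.6%). All 4 genes were found in 90 LApc cells (4.16%) and 1 LApcL cell. None of the 4 was found in 27.3% of LApc and 40.3% of LApcL cells.

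**Figure D4:**
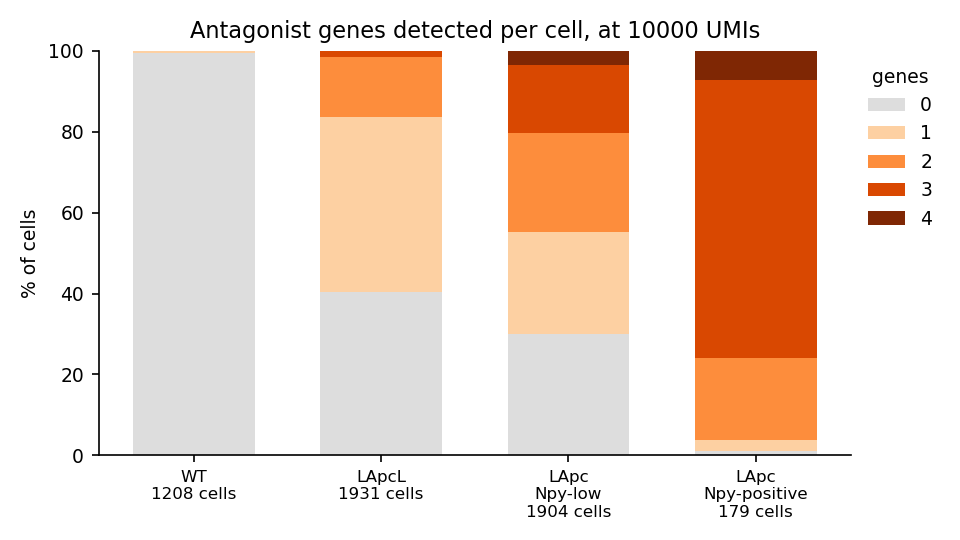
Percent of cells with 0 to 4 of the antagonist genes detected after thinning to 10000 UMIs, stacked to 100% for WT, LApcL and the Npy-low and Npy-positive cells of LApc. Cells with at least 2 genes make up 0% of WT, 16.3% of LApcL, 44.7% of Npy-low and 96.1% of Npy-positive cells.

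Across LApc cells the log-scaled levels, the natural log of 1 plus UMIs per 10000, followed the same grouping. Pearson's r over 2161 cells was 0.65 for Notum with Dkk3, 0.59 for Wif1 with Dkk3 and 0.51 for Notum with Wif1. For Dkk2 it was 0.09 with Notum, 0.00 with Dkk3 (0.0049 before rounding) and -0.09 with Wif1. In LApcL no pair was above 0.17 over 1931 cells. These cells share a library and differ in depth, so the coefficients describe that library and carry no p-value, and the counts in LApcL were sparser.

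Among 10907 genes found in at least 10% of LApc cells, the genes most like Notum were Nkd1 (r = 0.78), an intracellular Wnt feedback inhibitor, Ifitm1 (0.71), Tcf4 (0.71), Prox1 (0.70), a transcription factor of intestinal adenomas, and Spock2 (0.67). Tcf4 is used here as a gene symbol. The Wnt pathway factor that the study calls Tcf4 is encoded by another gene, Tcf7l2. The genes most like Wif1 were Ptn (0.70), which encodes the growth factor pleiotrophin, Tesc (0.61), Podn (0.60), Lamp2 (0.59) and Dkk3 (0.59). Those most like Dkk3 were Tcf4 (0.72), Ptn (0.71), Spock2 (0.70), Tesc (0.69) and Cadm1 (0.69), so that Tcf4, Spock2, Ptn and Tesc each stood in more than 1 of these lists. Dkk2 shared none of them: its closest genes were Stra6 (0.46), a receptor for the retinol carrier, Bmp2 (0.35), S100a11 (0.35), Wls (0.34), which carries Wnt proteins to the cell surface, and Dpysl3 (0.34). In LApcL the r of Notum with Nkd1 was 0.48, that of Wif1 with Ptn 0.07, that of Dkk3 with Tcf4 0.22 and that of Dkk2 with Stra6 0.21.

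Cells were also split by a second gene, detected or not at 10000 UMIs. The Nkd1, Prox1 and Mki67 splits of LApc set Dkk2 apart from the other antagonists on summed levels, and the Axin2, Lef1 and Lgr5 splits did not. In LApc cells with Nkd1 (1655 of 2161), Wif1 was at 174 CPM and in those without it (506) at 1.38 CPM, a ratio of 126 (91.3 to 181). For Dkk3 the levels were 114 and 1.19 CPM, a ratio of 96.3 (67.8 to 142). For Notum they were 416 and 18.6 CPM, a ratio of 22.4 (20.5 to 24.5), and for Dkk2 74.5 and 10.9 CPM, a ratio of 6.803 (6.04 to 7.69). The cells without Nkd1 were deeper, with a median of 45911 UMIs against 32264, and held 36 of the 11320 Wif1 UMIs of the library. In LApcL the same split gave ratios of only 1.76 to 2.53 for the 4 genes.

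The LApcL level was not lower in every class of cell. Among cells with Nkd1, Dkk3 was 33.9-fold lower in LApcL than in LApc (29.3 to 39.5), Wif1 19.3-fold (17.6 to 21.1), Notum 4.73-fold (4.59 to 4.88) and Dkk2 1.41-fold (1.34 to 1.47). Among cells without Nkd1, all 4 genes were higher in LApcL. There Wif1 was at 3.99 CPM in LApcL and 1.38 CPM in LApc, a ratio of 2.89 (1.96 to 4.36). Notum was at 41.7 and 18.6 CPM, a ratio of 2.24 (2.01 to 2.50), and Dkk2 at 20.9 and 10.9 CPM, a ratio of 1.91 (1.65 to 2.21). Dkk3 was at 1.92 and 1.19 CPM from 49 and 31 UMIs, a ratio of 1.61 (1.01 to 2.62). Nkd1 itself was lower in LApcL, at a ratio of 0.339, so cells without a thinned Nkd1 UMI are not the same class in both libraries.

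Prox1 gave a like split in LApc, with ratios of 15.8 for Dkk3, 14.6 for Wif1, 10.6 for Notum and 2.88 for Dkk2. In LApcL it separated Dkk3 alone by a similar factor, at 5.07 CPM with Prox1 and 0.451 CPM without it, a ratio of 11.2 (6.85 to 19.6), and 217 of the 234 Dkk3 UMIs (92.7%) lay in the 56.4% of cells with Prox1. Few cells carry this: 18 LApcL cells (0.932%) held 50% of the Dkk3 UMIs, and thinned detection was 4.13% with Prox1 and 0.713% without. The other 3 ratios there were between 1.09 and 1.89. Axin2, a general Wnt target, gave ratios between 2.59 and 2.86 in LApc. In LApcL they were 1.60 for Notum and 2.12 for Dkk2. For Wif1 the ratio was 1.14 with an interval that included 1 (0.861 to 1.54), and its thinned detection was 5.87% with Axin2 and 9.04% without. The Dkk3 ratio of 0.622 rests on 36 UMIs in the cells without Axin2, and the share of cells with Dkk3 went the other way, at 2.79% with Axin2 and 1.13% without.

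Cells with a thinned Lef1 UMI had higher summed levels of all 4 antagonists than cells without it. In LApc the ratios were 2.22 for Notum, 2.096 for Wif1, 2.25 for Dkk2 and 2.40 for Dkk3. In LApcL they were 1.41, 1.69, 2.22 and 1.38 in the same order, so the ratio of Dkk2 was nearly the same in both libraries. For Dkk3 in LApcL the share of cells with it went the other way, at 2.44% of cells with Lef1 and 2.75% of those without. The difference between libraries was present on both sides of the split. Among cells with Lef1, Dkk3 was 34.7-fold lower in LApcL (28.4 to 43.0) and Wif1 17.5-fold lower (15.5 to 19.8). Among cells without it they were 20.0-fold (16.8 to 23.9) and 14.1-fold lower (12.6 to 15.9).

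Dividing cells, marked by Mki67, had less of each antagonist. In LApc, cells with Mki67 were at 113 CPM of Notum and cells without it at 391.8 CPM, a ratio of 0.288, and the ratio was 0.240 for Wif1, 0.213 for Dkk3 and 0.542 for Dkk2. In LApcL it was 0.657 for Notum, 0.616 for Wif1, 0.273 for Dkk3 and 0.549 for Dkk2. Cells with Mki67 were 25.7% of LApc and 44.1% of LApcL cells. The difference between the libraries was present without them: among cells without Mki67, Dkk3 was 22.9-fold lower in LApcL, Wif1 17.6-fold, Notum 4.36-fold and Dkk2 1.17-fold (1.11 to 1.23).

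Lgr5, the stem cell gene of the Cre driver, split the cells in opposite directions in the libraries. In LApc all 4 antagonists were lower in cells with Lgr5, with ratios between 0.6004 for Dkk3 and 0.733 for Notum. In LApcL the ratios were 1.18 for Notum, 1.58 for Wif1, 1.17 for Dkk2 and 1.26 for Dkk3, of which the interval for Dkk3 included 1 (0.962 to 1.64). Among cells with Lgr5, Dkk2 was at 46.1 CPM in LApcL and 42.8 CPM in LApc, a ratio of 1.08 (0.993 to 1.17), so that no difference in Dkk2 was detectable there at this depth.

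**Figure D5:**
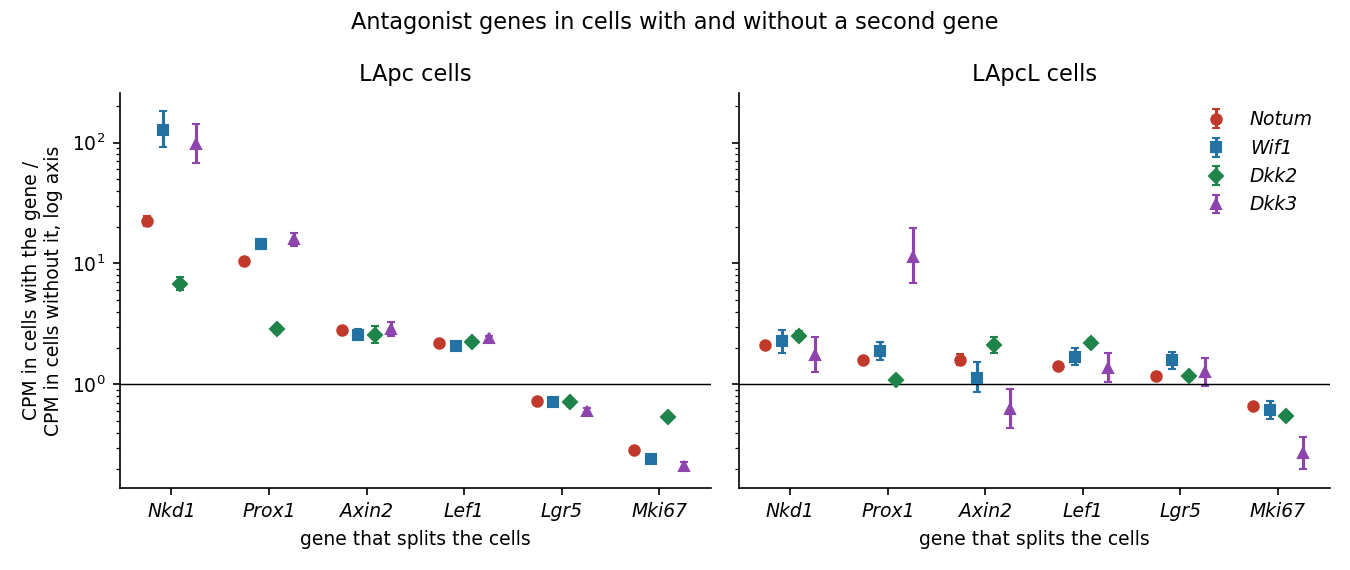
Ratio of the level of each antagonist in cells with and without a thinned UMI of a second gene (x axis), on a log axis with exact 95% intervals, for LApc and LApcL cells. In LApc the Nkd1 ratios of Wif1 and Dkk3 are 126 and 96.3, and in LApcL the Prox1 ratio of Dkk3, at 11.2, stands above the others.

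Cells with at least 1% of UMIs from Defa24, Defa30 and Lyz1, genes of the antimicrobial Paneth cell, numbered 26 in LApc and 72 in LApcL. In these LApcL cells Wif1 was at 39.9 CPM and in the other LApcL cells at 6.56 CPM, a ratio of 6.08 (4.77 to 7.66). They were 3.73% of the LApcL cells and held 85 of the 599 Wif1 UMIs (14.2%), over 28 cells with Wif1, and their median depth was 24259 UMIs against 32970. Dkk2 was lower in them, at 6.10 against 43.7 CPM (ratio 0.139, 0.0742 to 0.239), and Dkk3 had 0 UMIs in all 72 cells. Notum was at 93.8 and 72.7 CPM, a ratio of 1.29 (1.11 to 1.49). In the 26 LApc cells of this class the Wif1 ratio was 0.438 (0.312 to 0.596), at 54.8 against 125 CPM, from 40 UMIs in 6 cells with Wif1. The other LApc cells include the Npy-positive ones, and Npy-low LApc cells were at 60.6 CPM, so the ratios of the libraries are not set against each other.

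Other genes of the pathway were read from 6 lists in the same cells. Of the 7 other secreted antagonists with at least 10 UMIs in LApc or LApcL, 3 were 2-fold or more lower in LApcL (Dkk4, Sfrp4 and Sostdc1), where 12.0% of all genes tested were, and 2 were 2-fold or more higher, where 4.51% were. The lower ones rest on 40, 27 and 41 UMIs in LApc, all under 0.5 CPM, and had 0 UMIs in LApcL, so that the filter on low counts fixed their direction, as it did for Sfrp2. The higher ones were Sfrp5, a secreted Frizzled-related Wnt antagonist, at 71.2 CPM in LApcL and 14.8 CPM in LApc (ratio 4.82, 4.54 to 5.12), and Sfrp2, with 121 and 3 UMIs. Igfbp4, which also inhibits Wnt signalling, was at 171 and 95.3 CPM (ratio 1.80, 1.75 to 1.85). The median log2 ratio of this list was 0.05. Sfrp5 was also 2-fold or more lower in Npy-positive than in Npy-low LApc cells, as Dkk2 was.

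The counts of the other lists are to be read against the 12.0% of all genes that were 2-fold or more lower in LApcL and the 4.51% that were higher. Of the 7 genes of cell-bound feedback, 2 were lower. They were Apcdd1, a membrane inhibitor of Wnt signalling, at 34.8 CPM in LApcL and 239 CPM in LApc (ratio 0.146, 0.140 to 0.151), and Nkd1, at 179 and 527 CPM. Axin2 was at 299 and 388 CPM, Znrf3 at 40.1 and 66.8 CPM, Tnfrsf19 at 59.3 and 61.6 CPM, and Rnf43 at 140 and 124 CPM. Of the 9 Wnt target genes, Prox1 was 2-fold or more lower in LApcL, at 152 against 426 CPM, and Lgr5 was higher, at 90.0 against 34.7 CPM. Of 9 genes for co-receptors, glypicans and the making or export of Wnt proteins, 1 was lower (Gpc1, 13.5 against 30.4 CPM), while the Dkk2 targets Lrp5 and Lrp6 were at ratios of 1.29 and 1.06. Of 15 Wnt ligands 7 were lower and 0 higher, but all except Wnt4 were under 10 UMIs in LApcL and passed the filter on low counts through LApc alone, so the count supports no direction of the list. Wnt4 was at 3.43 and 7.03 CPM. Of the ligands over 20 CPM in a library, Wnt6 was at 173 and 200 CPM and Wnt10a at 24.4 and 47.0 CPM. Of 10 Frizzled receptors 1 was higher (Fzd9) and 0 were lower.

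The same lists were counted in LApc against WT, where 31.6% of all genes tested were 2-fold or more higher and 14.9% lower. The counts of genes 2-fold or more higher were 3 of 5 other secreted antagonists, 7 of 9 co-receptor, glypican and Wnt export genes, 13 of 15 Wnt ligands, 7 of 10 Frizzled receptors, 6 of 7 genes of cell-bound feedback and 8 of 9 Wnt target genes. The genes 2-fold or more lower were the receptors Fzd4 and Fzd5. Many of the higher genes were under 10 UMIs in WT and passed the filter on low counts through LApc alone, which fixed their direction. They include every higher ligand except Wnt4 and Wnt5b, as well as Sostdc1, Gpc1, Gpc3 and Fzd10, so the counts of those lists support no direction of a list. The higher genes of cell-bound feedback and the higher Wnt target genes all had at least 10 UMIs in WT, so the filter did not fix their direction. With 1 library per genotype all these counts are a description. The median log2 ratio was 4.24 for cell-bound feedback and 3.15 for Wnt target genes, beside 6.64 for Notum, Wif1, Dkk2 and Dkk3. In Npy-positive against Npy-low LApc cells, 7 of 15 Wnt ligands were 2-fold or more higher, where 16.1% of all genes tested were, and 3 were lower (Wnt3, Wnt7b and Wnt16), where 9.54% were. Of the higher ones Wnt5a, Wnt7a, Wnt8b and Wnt9a had 3 to 8 UMIs in Npy-positive cells, and the intervals of Wnt7a, Wnt8b and Wnt9a included 1. Of the lower ones Wnt3 and Wnt16 had 5 and 6 UMIs in Npy-positive cells and passed the filter on low counts through Npy-low cells alone. The counts of this list are thus a description. Wnt7b was at 5.80 against 13.5 CPM. Nkd1 was higher at 966 against 481 CPM, Wnt6 at 365 against 178 CPM and Wnt10a at 111 against 38.7 CPM. The stem cell factor Ascl2 and the cell cycle gene Ccnd1 were lower, at 13.7 against 71.0 CPM and 102 against 391 CPM.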

How the data were processed

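Organoid cells of 3 mouse genotypes, with 1 droplet library each, were profiled with the 10x 3′ kit. The authors deposited whole-number UMI counts per gene and barcode on mm10 (GRCm38), with no normalization; the deposited counts name cellranger 6.0.1 in the file headers, while the submitters' processing notes give Cell Ranger 2.1.1. Replicates were not pooled. Shared, shallow (under 10000 UMIs) and over 20% mitochondrial barcodes were left out, and no doublets were removed in the reported values.

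UMIs were summed per library or class and scaled to CPM. Intervals are exact at 95%: Poisson for CPM, conditional binomial for ratios, Clopper-Pearson for shares. They cover counting error only. A count of 0 was given a limit of 3 counts. Cells were thinned to 10000 UMIs with a fixed seed. Genes with at least 10 UMIs in 1 of the groups were tested against the 2-fold limit. With 1 library per group there was no test. Named genes were the 4 antagonists, with Npy, Lef1 and Apc as checks, the 5 genes with the highest Pearson r to each antagonist over LApc cells, and list genes over 20 CPM in a library. Other genes (Xist, Ddx3y, Sfrp2, marker genes and genes that make up a count) were named after their values were seen. The members and lists were chosen with earlier results of these data known. The interval and thinning steps were tested on simulated data. Scripts used Python 3.11.15, numpy 2.4.6, scipy 1.17.1, pandas 2.3.3 and, for Scrublet, scanpy 1.11.5. Alternatives were other depth, mitochondrial, doublet, scale, pseudocount, Npy and detection settings.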

Additional observations from a re-analysis of the deposited data

Results flagged for a closer look

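The antagonists were also present in barcodes that the comparisons left out, at levels whose counting interval lay above that of WT in the same class of barcode. In barcodes of 1 library with under 10000 UMIs, Notum was at 232 CPM in LApc and 82.0 CPM in LApcL, against 0.481 CPM in WT. Wif1 was at 24.3 and 5.89 CPM, against 0.0437 CPM in WT. Dkk2 was at 36.7 and 24.7 CPM, against 0.262 CPM, and Dkk3 at 48.1 and 1.54 CPM, against 0.0875 CPM.

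In barcodes of 1 library with at least 10000 UMIs but over 20% mitochondrial UMIs, Notum was at 89.3 CPM in LApc and 58.4 CPM in LApcL, against 0.869 CPM in WT. Wif1 was at 10.9 and 1.66 CPM, the latter from 7 UMIs, against 0 in WT. Dkk2 was at 26.3 and 29.2 CPM, against 0.145 CPM, and its intervals in LApc (22.1 to 31.0) and LApcL (24.3 to 34.8) overlapped. Dkk3 was at 13.9 CPM in LApc, against 0.145 CPM.

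In barcodes shared between libraries, which carried Pecam1 at 959 to 1042 CPM, Notum was at 22.3 CPM in LApc and 6.50 CPM in LApcL, against 0.235 CPM in WT. Wif1 was at 18.4 CPM and Dkk3 at 7.96 CPM in LApc, against 0 and 2.00 CPM in WT. Dkk2 was at 29.3 CPM in LApc and, unlike in the deep cells, was at 21.3 CPM in WT as well and at 20.6 CPM in LApcL.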

How the results depend on the processing

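The 4 medians and 2 shares had 58 values under the alternatives, of which 35 stayed inside the counting interval of the reported value. No median changed sign, and no single antagonist did in any of 168 values. A change of pseudocount cannot alter the sign of a single antagonist, and a share has no sign, so those values could not show a reversal. With at most 10% mitochondrial UMIs the medians were -3.07 (LApcL against LApc), 1.60 (Npy-positive against Npy-low) and -2.44 (LApcL against Npy-low LApc), and 54.5% of LApc cells had at least 2 of the genes. With 20000 UMIs or more the Npy median was 1.75. With the highest Scrublet scores removed it was 1.78, and the LApcL share was 18.99%. With each cell given the same weight, LApcL against LApc was -2.88 and the Npy median 1.40. With median-of-ratios scaling the Npy median was 1.57. A pseudocount of 0.1 CPM gave -3.04 for LApcL against LApc, -2.42 against Npy-low LApc and 9.34 for LApc against WT (Notum 9.27, Dkk2 8.12). One of 10 CPM gave -2.37, 3.47 (LApc against WT), 1.58 and -1.86. With Npy counted after thinning, LApcL against Npy-low LApc was -2.48. The shares for LApc and LApcL were 37.8% and 7.86% with cells of 5000 UMIs or more thinned to 5000, 65.8% and 43.1% without thinning, and 34.3% and 3.83% with detection at 2 UMIs, so these shares depend on depth.

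The automatic threshold of Scrublet called 3 to 5 barcodes per library and did not work, so scores were ranked. No paired analysis was possible because each genotype had 1 library. The spread between mice was not measured, WT ratios rest on 1 to 19 UMIs, and LApcL values of Wif1 and Dkk3 on 599 and 234 UMIs.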
